A study of Mus musculus with 21 samples.

Results

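The regions described here are 500 bp stretches of open chromatin that carried an ATAC-seq summit in every primary granule-lineage library of a mouse medulloblastoma study and in no library of VDR, the mouse medulloblastoma cell line of the same study (the name is that of the line). Each of the 21 deposited summit lists was cut to its 100000 highest-scoring summits, and the kept summits were merged by rank into 270959 regions. Of these, 40246 were occupied in all 9 primary libraries, and 3720 of those, or 9.24%, were occupied in none of the 12 VDR libraries. These 3720 regions are called members below, and the other 36526 regions of all 9 primary libraries serve for comparison. The members were chosen by occupancy in these same 21 lists, so their presence in primary cells and absence from VDR is a description and was not tested.

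The libraries were made with Omni-ATAC, in which a transposase cuts and tags accessible DNA, and fall into 7 groups of 3. The VDR groups were cells given an siRNA labelled siNfia, siNfib or siNC (the control), and untreated cells; list names have sh where the labels have si, which leaves the reagent uncertain. The primary groups were EGFP-positive cells sorted from cerebella of Atoh1-EGFP mice: granule neuron progenitors (GNP) of postnatal day 7, titled Ptch1GNP with no genotype stated, hyperplasia of postnatal day 28, and medulloblastoma of an age not given. All primary cells share the Atoh1-driven EGFP that the sort used, and all VDR cells share 1 line. Lists held 159720 to 279584 summits, the score at rank 100000 was 3.76 to 17.4 in VDR libraries and 9.26 to 28.9 in primary libraries, and read depth is unknown. Knockdown of Nfia and Nfib cannot be read from these data. The labels do not say whether replicates came from separate animals or cultures, so a p-value may measure technical spread only.

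Cerebellar granule neurons arise from progenitors marked by the transcription factor Atoh1, which divide in the outer layer of the young cerebellum under Sonic hedgehog and then migrate inward and mature. Loss of the hedgehog receptor Ptch1 in these progenitors can lead through a hyperplastic stage to medulloblastoma. Open chromatin marks promoters and distal regulatory elements, and distal elements differ between cell types more than promoters do. NFI proteins (Nfia, Nfib, Nfic and Nfix) are DNA-binding factors with known roles in granule neuron maturation and glial development.

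Of the 7 granule progenitor markers, all had at least 1 region in all 9 primary libraries, with 64 such regions between them. Among markers of other cells, 4 of 7 astrocyte, 2 of 7 oligodendrocyte, 3 of 7 microglia and immune, 5 of 8 endothelial and mural, and 9 of 11 Purkinje cell and interneuron genes had one. Of the microglia and immune list, Csf1r, Cx3cr1, Aif1 and Trem2 had none, while Irf8 had 4, Spi1 2 and Ptprc 1. The part that other cells in the sorted samples take in the members was not tested.

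The gene starts of 5 genes inside members are shown as examples picked after their values were seen. The marked letters do not show how common a motif is in members, for which shares are given below. Each start lies in a region with a kept summit in all 9 primary libraries and in no VDR library. The Synpr and Ntrk2 regions hold a weaker summit in 3 and 2 whole VDR lists. The 5 starts belong to Synpr (synaptoporin, of synaptic vesicles), Irx2 (an Iroquois homeobox factor), Unc5c (a netrin receptor), Pcdh10 (a protocadherin) and Ntrk2 (TrkB, the receptor of BDNF). Each sequence is the 250 bases before the transcription start, from RefSeq on GRCm38.p6 (mm10), all on the plus strand, read 5′ to 3′. Capitals mark an NFI core motif (TTGGCA) or an E-box (CAGATG), on either strand; the Unc5c stretch holds none of the motifs searched.
Synpr, chr14:13284530-13284779: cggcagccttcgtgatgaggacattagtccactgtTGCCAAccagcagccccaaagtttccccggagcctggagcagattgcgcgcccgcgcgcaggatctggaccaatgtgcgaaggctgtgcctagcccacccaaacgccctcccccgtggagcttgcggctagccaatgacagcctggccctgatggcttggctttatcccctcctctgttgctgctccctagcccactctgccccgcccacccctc
Irx2, chr13:72628570-72628819: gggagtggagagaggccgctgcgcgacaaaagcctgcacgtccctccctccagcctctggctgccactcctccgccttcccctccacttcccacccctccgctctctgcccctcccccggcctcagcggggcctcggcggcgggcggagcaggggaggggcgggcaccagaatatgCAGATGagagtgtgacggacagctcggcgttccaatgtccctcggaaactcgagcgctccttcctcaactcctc
Unc5c, chr3:141465314-141465563: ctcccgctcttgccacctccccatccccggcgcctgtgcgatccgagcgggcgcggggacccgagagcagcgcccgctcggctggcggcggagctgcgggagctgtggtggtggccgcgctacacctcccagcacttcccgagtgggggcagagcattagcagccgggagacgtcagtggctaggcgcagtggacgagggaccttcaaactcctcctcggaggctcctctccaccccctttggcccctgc
Pcdh10, chr3:45378148-45378397: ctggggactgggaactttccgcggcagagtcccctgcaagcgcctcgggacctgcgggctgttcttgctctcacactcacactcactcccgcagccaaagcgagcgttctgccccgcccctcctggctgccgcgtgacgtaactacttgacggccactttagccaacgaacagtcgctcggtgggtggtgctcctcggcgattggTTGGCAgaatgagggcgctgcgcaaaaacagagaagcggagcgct
Ntrk2, chr13:58806319-58806568: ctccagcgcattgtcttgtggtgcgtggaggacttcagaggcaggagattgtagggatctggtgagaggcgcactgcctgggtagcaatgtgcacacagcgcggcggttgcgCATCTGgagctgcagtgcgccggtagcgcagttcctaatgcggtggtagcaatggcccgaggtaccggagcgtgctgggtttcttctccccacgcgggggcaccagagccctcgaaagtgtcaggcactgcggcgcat

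In all, 291 RefSeq promoter windows of 273 genes had their start in a member, against 8742 windows of 7816 genes for the other primary regions. The GC content of the 250 bases averaged 58.8% in the member promoters and 61.5% in the promoters of other primary regions, and 55.5% over all 21263 windows. Member promoters held 13.2 CpG per window, against 18.5 for other primary regions and 12.1 over all windows. The member promoters were nearer to the average mouse promoter in CpG count than to the promoters of other primary regions.

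Motifs were searched on both strands of the same 250 bases, and a match is a description of letters only. The NFI core motif TTGGCA stood in 12.03% of member promoters (35 of 291), in 9.20% of promoters of other primary regions and in 11.50% of all promoters. The E-box CAGATG stood in 12.7% of member promoters, 8.85% of promoters of other primary regions and 12.4% of all promoters, and the E-box CAGCTG in 13.7% of member promoters, 11.1% of the promoters of other regions and 12.1% of all. E-boxes are the letters that Atoh1 and other bHLH factors bind. The ZIC motif CAGCAGG was found in 9.97% of member promoters, 7.74% of promoters of other primary regions and 8.37% of all. The AP-1 motif TGANTCA was in 5.15% of member promoters, 3.18% of the promoters of other regions and 6.13% of all, and the SOX motif ACAATGG in 1.37% of member promoters, 1.26% of the promoters of other regions and 2.37% of all. The full NFI palindrome and the GLI motif TGGGTGGTC were in 0 of the 291 member promoters, and in 0.0329% and 0.160% of all promoters. The shares of the NFI core, E-box and ZIC motifs were above both comparison sets, with at most 40 member promoters each. Those of the NFI core and CAGATG were close to the shares of all promoters. The shares of AP-1 and SOX lay between the comparison sets. No share was tested. The hairpins of 4 miRNAs, Mir137, Mir1197, Mir323 and Mir8092, also lay in members.

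Over all regions of the 9 primary libraries, the number of VDR libraries that occupied a region had 2 peaks. It was 0 of 12 in the 3720 members and 12 of 12 in 14732 regions (36.6%), while each count of 1 to 6 held only 832 to 1216 regions. The regions of exactly 1 VDR library numbered 1216 (3.02%). Members were thus more numerous than the regions of any count from 1 to 9 VDR libraries.

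**Figure D1:**
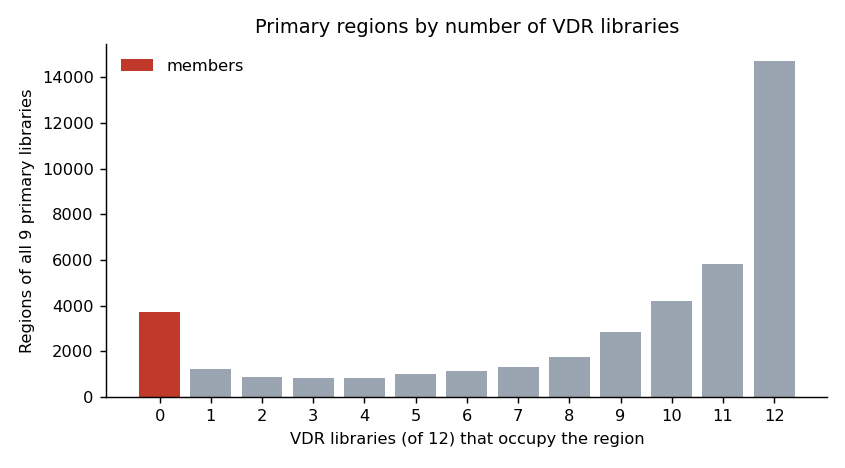
Number of regions of all 9 primary libraries (y axis) by how many of the 12 VDR libraries occupied them (x axis); the red bar is the 3720 members and grey bars are the other primary regions. Counts are lowest between 2 and 5 VDR libraries and highest at 12, with 14732 regions.

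Absence held beyond the 100000-summit limit for many members. In the whole deposited lists, 1819 members (48.9%) had no summit in any of the 12 VDR libraries, the median member had a summit in 1 list, and none had one in all 12. A further check found no kept VDR summit within 500 bp of the centre for 3365 members. At the border of the rule, the weakest members stood at rank 99990 (at Cmip) and 99971 (at Pcdh7) in their weakest primary library, with regions just outside at 100001 (Casp12) and 100028 (Plxna2). On the VDR side, the best VDR summits in members ranked 100004 (Stard13 and Cpped1), and a region just outside ranked 99990 (B3galnt1).

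Members were of middling strength in primary cells. Among regions with a geometric mean rank of 1 to 10000, 103 of 8261 (1.25%) were members; the share was 4.86% between 10000 and 20000, 10.3% to 40000, 15.9% to 60000 and 19.4% beyond. The middle of the distribution, from the lower to the upper quartile, ran from rank 28116 to 52847 for members and from 11236 to 40916 for other primary regions. A few members nevertheless ranked among the strongest sites of the primary cells.

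The best-ranked member lay 273 bp beyond an end of Stmn2, which encodes a microtubule-destabilising protein of growing axons (chr3:8561627-8562126, mean rank 535). It ranked 56, 160 and 83 in GNP, 1316, 1283 and 1438 in hyperplasia and 887, 1802 and 1253 in tumor, and its only VDR summit was at rank 205277 of the siNC 3 list. It was thus near the top of all 9 lists and highest in the 3 GNP libraries. The second lay in Uggt2, whose product senses misfolded glycoproteins (chr14:119007345-119007844, mean rank 722), with ranks of 875, 835 and 634 in GNP, 585, 925 and 492 in hyperplasia and 810, 399 and 1331 in tumor, and no summit in any VDR list. The third held the Synpr start shown above and ranked 1205, 870 and 409 in GNP, 1429, 1012 and 1088 in hyperplasia and 969, 729 and 1834 in tumor, with VDR summits at rank 124057 in siNC 2, 195426 in siNfib 3 and 221335 in siNC 3. The groups overlap at Uggt2 and Synpr, so no stage stands apart at these 2 regions.

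The remaining members among the 8 best by rank were in Lnx1, a ubiquitin ligase gene (mean rank 1282), in Popdc3 (2442) and Prkg1 (2474), and at 2 sites more than 100 kb from any protein-coding gene, chr5:111935325-111935824 (1700) and chr8:41549986-41550485 (2041). Prkg1 encodes a cGMP-dependent protein kinase. The Popdc3 and Prkg1 members had no summit in any whole VDR list, and the other 3 had 1 each.

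By position, members were mostly distal. Of the members, 56.4% lay in a gene body, against 58.2% of other primary regions; at the same ranks the shares were 56.6% and 61.1%. Only 592 members (15.9%) lay within 1 kb of a gene end, against 36.0% of other primary regions and 45.3% of the regions of all 21 libraries. The median distance to a gene end was 26554.5 bp for members, 4936.5 bp for other primary regions and 1901 bp for regions of all 21 libraries, and 37.3% of members lay over 50 kb away, against 19.1% of other primary regions. Among regions of the same ranks, 13.5% of members and 28.3% of other primary regions were within 1 kb of a gene end. Gene ends stand in for promoters here and mix both ends of a gene, since gene bodies were used without strand. Stranded transcription starts were used only for the promoter windows above.

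Chromosomes held unequal shares of members. The share was highest on chromosome 3 (248 of 1937 primary regions, 12.8%), followed by chromosomes 5 (12.5%), 13 (12.4%) and 18 (11.9%). It was lowest on chromosome 15 (66 of 1638, 4.03%) and chromosome 17 (5.93%), and 0 of 5 on the Y chromosome. DNA copy number in the line was not measured, and its part in these shares and in the runs below was not tested.

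Members also lay side by side. Of the neighbouring primary regions of members, 27.3% were members themselves, against 7.40% of the neighbours of other primary regions. The members formed 2703 unbroken runs, of which 2117 were a single region, 202 had at least 3 members (835 members, 22.4%) and 51 had at least 5 (337 members). Runs are stretches in which every region shared by the primary cells was missing from VDR.

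The longest run held 17 members over 2056 kb at Irx1 and Irx2 (chr13:71105154-73160733). Of these, 2 were assigned to Irx2 and 1 to Irx4, and the others had no protein-coding gene within 100 kb. Primary libraries had 33 to 62 kept summits in it, the 9 siRNA-treated VDR libraries had 0 each, and the untreated VDR libraries had 4 to 6. The next run held 13 members over 536 kb, 12 of them assigned to Ntrk2 (chr13:58806301-59342313), with 24 to 36 kept summits in primary libraries, 0 in each siRNA-treated library and 2 to 4 in untreated VDR. Among kept summits, both stretches were thus close to empty in the line, and the few there were in the untreated libraries. In the whole lists the Irx1 and Irx2 run held 14 to 24 summits in untreated VDR and 0 to 10 in siRNA-treated libraries. Primary libraries had 123 to 200 there. The Ntrk2 run held 5 to 12 in untreated VDR and 0 to 3 in siRNA-treated libraries, against 44 to 84 in primary libraries.

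A run of 11 members at Lingo2, which encodes a leucine-rich repeat membrane protein of neurons, spanned 2871 kb (chr4:35354064-38224940). It held 19 to 26 kept summits in primary libraries, 0 in 8 of the 9 siRNA-treated libraries, 2 in siNC 1, and 0 or 1 in untreated VDR. The run at Gria1, an AMPA receptor subunit (chr11:56262670-57223645, 10 members), had 16 to 24 in primary libraries, 0 in 8 siRNA-treated libraries, 1 in siNC 1, and 0 to 3 in untreated VDR. The run at Ajap1, whose product binds adherens junctions (chr4:152902839-153604162, 11 members), differed in that untreated VDR had 8 to 11 kept summits beside members and the siRNA-treated libraries had 0, against 26 to 36 in primary libraries. In the whole lists, untreated VDR had 34 to 46 summits in that stretch. Of the members in these runs, 8 were assigned to Lingo2, 5 to Gria1 and 3 to Ajap1. The others had no protein-coding gene within 100 kb.

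**Figure D2:**
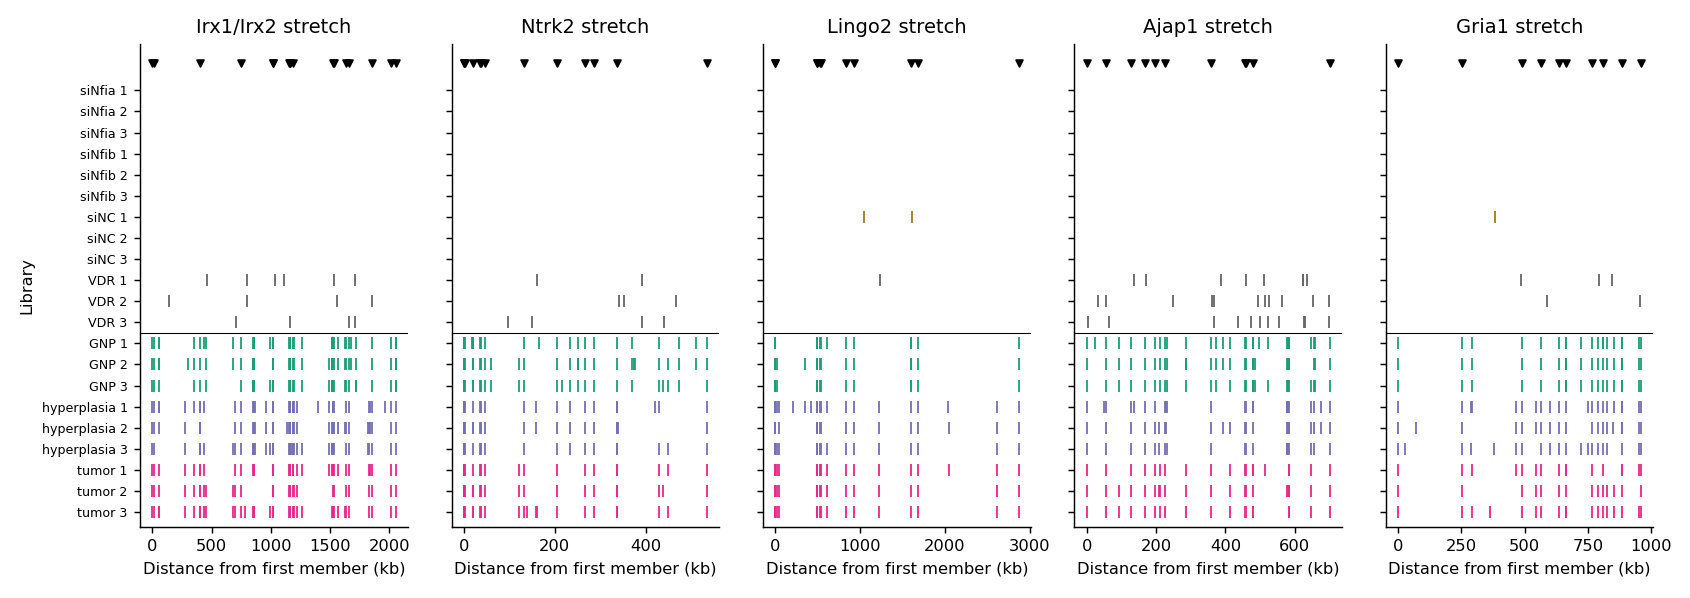
Occupied regions (ticks) in each of the 21 libraries (rows) along the 5 longest runs of members, against distance from the first member in kb; triangles mark members. The siRNA-treated VDR rows are empty apart from siNC 1 at Lingo2 and Gria1, untreated VDR rows hold 0 to 11 ticks, and primary rows hold 14 to 44.

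The whole VDR set was therefore not uniform around the members. The untreated libraries carried the lowest scores at rank 100000 (3.76 to 3.97, against 4.95 to 17.4 in siRNA-treated libraries), and their lists also kept fewer of the other primary regions (57.8% to 69.7%, against 82.9% to 89.2%). Treatment and library quality cannot be told apart in this contrast. Without the untreated libraries, an alternative added after seeing the data, the same rule gave 4343 members.

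Of 13561 genes with a primary region, 2176 (16.05%) had at least 1 member, 206 had at least 3 and 38 had at least 5. A single member was the rule, in 1595 genes. Of the 2015 genes with at least 5 primary regions, 1149 had no member, and in 7 genes every one was a member: Ntrk2, Lingo2, Fam110b, Dpp6, Gria1, Pcdh10 and Spock1. These 7 include a neurotrophin receptor, an AMPA receptor subunit, a potassium channel partner (Dpp6), a protocadherin and an extracellular proteoglycan (Spock1).

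Ntrk2 had 12 members among 12 primary regions. Counting every region assigned to the gene, Ntrk2 had 0 occupied regions in each of the 9 siRNA-treated libraries and 2, 2 and 3 in untreated VDR, against 18, 21 and 19 in GNP, 17, 17 and 14 in hyperplasia and 15, 15 and 18 in tumor. Lingo2 (8 of 8) had 0 in 10 VDR libraries, 2 in siNC 1 and 1 in VDR 1, with 10 to 12 in primary libraries. Ntrk2 counts in GNP lay above those in hyperplasia without overlap, while the stages overlapped at Lingo2. Fam110b (6 of 6), which encodes a centrosomal protein, had 0 in all 12 VDR libraries and 6 to 9 in primary libraries. Dpp6 (5 of 5) had 0 in siRNA-treated libraries, 1 in each untreated VDR library and 15 to 20 in primary libraries. Gria1 (5 of 5) had 0 in siRNA-treated libraries, 6, 5 and 1 in untreated VDR and 10 to 14 in primary libraries. Pcdh10 (5 of 5) had 1 occupied region in VDR 3 and 0 in the other VDR libraries, and 10, 10 and 10 in GNP, 9, 7 and 6 in hyperplasia and 5, 5 and 5 in tumor. At Pcdh10 the tumor counts lay below the GNP counts without overlap, a contrast of 3 libraries against 3 in which the smallest exact p is 0.1.

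Among the other genes with the most members, Fstl4, Pmepa1 and Esrrg had more occupied regions in untreated VDR than in siRNA-treated libraries. Fstl4, which encodes a follistatin-like protein, had 8 members among 10 primary regions; it had 0 or 1 occupied regions in each siRNA-treated library and 9, 13 and 13 in untreated VDR, against 16 to 22 in primary libraries. Pmepa1, a membrane protein that dampens TGF-beta signalling, also had 8 of 10, with 1 to 3 in siRNA-treated libraries, 17, 16 and 5 in untreated VDR and 14 to 20 in primary libraries. Esrrg, an orphan nuclear receptor, had 6 of 7, with 0 to 3 in siRNA-treated libraries, 21, 13 and 15 in untreated VDR and 12 to 17 in primary libraries. At Esrrg the untreated line therefore had as many occupied regions as primary cells, but at other positions than the 6 members. Stmn2 (6 of 7) had 0 or 1 in all VDR libraries and 7 to 9 in primary libraries.

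Clstn2, a calsyntenin of synapses, had 8 members of 14 primary regions, Lsamp, an IgLON adhesion protein, 8 of 18, and Sdk2, a sidekick adhesion protein, 7 of 18. Sox6, a SOX-family factor, had 7 of 10, Trabd2b, a protease that acts on Wnt proteins, 7 of 12, and Slc39a11, a zinc transporter, 7 of 27. Car10, a carbonic anhydrase-related protein that binds neurexins, had 6 of 7, and Kif13b, a kinesin, 6 of 10. The counts were not adjusted for gene length, which sets how many regions a gene can hold.

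**Figure D3:**
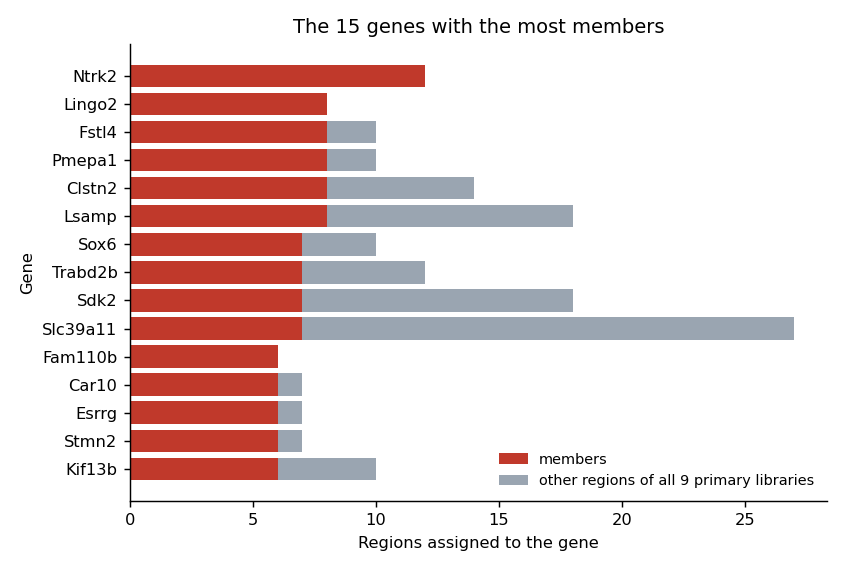
The 15 genes with the most members, with members (red) and other regions of all 9 primary libraries (grey) assigned to each (x axis, number of regions). Ntrk2, Lingo2 and Fam110b have members only, while Slc39a11 has 7 members among 27 regions.

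Among genes of fixed lists, members are read against the 9.24% of all primary regions. Granule progenitor genes had 21 members among 146 primary regions (14.4%), in 8 of the 18 genes with a primary region. Pax6, a homeobox factor of granule progenitors, had 6 of 14, Neurod1, a bHLH factor of early granule neurons, 3 of 5, Barhl2, a homeobox factor, 3 of 9, and the cyclin gene Ccnd2 3 of 8. Insm1 had 2 of 5, Meis1 2 of 17, Ccnd1 1 of 9 and Zic4 1 of 19. Atoh1, Barhl1, Zic1, Zic2, Zic5, Mycn, Lhx9, Lhx2, Otx2 and Cxcr4 had primary regions and no member. Meis2 had no primary region.

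Atoh1, the factor that defines the lineage and drives the sorted EGFP, shows the contrast: it had 0 members of 5 primary regions, and 12 to 21 occupied regions in siRNA-treated libraries and 8 to 10 in untreated VDR, against 8 to 14 in primary libraries. Pax6 had 9 to 13 in siRNA-treated libraries and 5 to 8 in untreated VDR, against 21 to 31 in primary libraries. Barhl2 had 4 to 9 in siRNA-treated libraries and 2 to 4 in untreated VDR, against 15 to 21 in primary libraries. At Pax6 and Barhl2 the VDR and primary counts did not overlap, while at Atoh1 they did. Overlap did not follow membership at every gene. Counts at Cdon, with no member, did not overlap (0 to 4 in VDR, 7 to 9 in primary libraries). Those at Ccnd2, with 3 members, did (5 to 11 and 10 to 18). The rule used the same occupancy, so these counts are a description.

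The Hedgehog list had 6 members among 106 primary regions (5.66%). Ptch1, the receptor, had 1 of 10, Gas1, a co-receptor, 1 of 9, Hhat, the acyltransferase of the ligand, 1 of 6, Disp1, which releases the ligand, 1 of 3, Kif7, a ciliary kinesin, 1 of 2, and Gli3, the transcription factor that can act as repressor, 1 of 1. Smo, Gli1, Gli2, Sufu, Hhip, Boc, Cdon, Spop, Sfrp1, Gpr161 and Shh had none, and Foxf1 had no primary region. Gli2 had 337, 389 and 334 occupied regions in untreated VDR and 56 to 78 in siRNA-treated libraries, against 34 to 46 in primary libraries. At Gli3 the VDR libraries had 0 occupied regions apart from 1 in siNfia 1 and 1 in siNC 1. Primary libraries had 12, 11 and 12 in GNP, 14, 17 and 12 in hyperplasia and 3, 3 and 3 in tumor, so that tumor libraries lay below both earlier stages.

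The NFI genes, which the knockdowns target, had 7 members among 107 primary regions (6.54%): Nfia 1 of 41, Nfib 1 of 29, Nfic 2 of 15 and Nfix 3 of 22. Nfib kept 78 to 119 occupied regions in siRNA-treated libraries and 55 to 70 in untreated VDR, against 43 to 57 in primary libraries. Nfia had 48 to 53 in siRNA-treated libraries and 20 to 37 in untreated VDR, against 53 to 71 in primary libraries. Both genes thus had many occupied regions in the line, Nfib more than in primary cells in all siRNA-treated libraries.

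Neural stem and glial progenitor genes had 10 members among 50 primary regions (20%). These lay in 4 of the 10 genes with a primary region. Olig2, a bHLH factor of oligodendrocyte and other progenitors, had 4 of 7, Vim, an intermediate filament gene, 2 of 2 and Pdgfra 1 of 10. Sox2, Sox9, Hes1, Hes5, Olig1 and Cspg4 had primary regions and no member, so the share rests on a few genes. Olig2 had 0 occupied regions in 8 siRNA-treated libraries, 1 in siNC 1, and 3, 0 and 3 in untreated VDR, against 7 to 11 in primary libraries. Vim had few regions in all, so its share rests on small counts.

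Cadherin and protocadherin genes had 20 of 106 (18.9%), with Pcdh10 5 of 5, Pcdh7 4 of 5 and Cdh13 3 of 21. Voltage-gated ion channel genes had 21 of 140 (15%), with Dpp6 5 of 5 and Cacna1a, a calcium channel subunit, 4 of 12. Axon guidance genes had 23 of 177 (12.99%), with Robo1, a Slit receptor, 4 of 15, and the netrin gene Ntn1 (3 of 10) and the plexin gene Plxna4 (3 of 16). Synaptic adhesion genes had 16 of 144 (11.1%), with the neuroligin Nlgn1 3 of 8. The synaptic adhesion share was close to the 9.24% of all regions.

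Granule neuron differentiation genes had 17 of 177 (9.60%), with Unc5c 4 of 4 and Reln, the guidance protein that granule neurons secrete, 4 of 16. Tumour suppressors and cell cycle inhibitors had 7 of 51 (13.7%), with Bcor, a transcriptional corepressor, 3 of 9 and Cdkn2b, a CDK inhibitor, 2 of 3. Cell cycle machinery had 2 of 57 (3.51%), AP-1 and immediate early genes 4 of 59 (6.78%), Notch pathway genes 4 of 53 (7.55%), Wnt pathway genes 8 of 64 (12.5%, with Tcf7l2 3 of 7) and chromatin regulators 9 of 101 (8.91%, with 6 of 24 at Chd7). Cell cycle genes thus had the lowest share of any list. Markers of other cells had 3 of 21 for astrocytes (all at Slc1a2, a glutamate transporter), 1 of 9 for oligodendrocytes, 2 of 7 for microglia and immune cells (1 each at Ptprc and Irf8), 3 of 19 for endothelial and mural cells, 5 of 29 for Purkinje cells and interneurons and 1 of 7 for fibroblasts and mesenchyme.

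The next question was whether knockdown brings weaker VDR summits to members. Beyond the first 100000 summits, up to rank 150000 in each list, 3.84%, 3.55% and 3.49% of members had a summit in the siNfia libraries, 6.18%, 6.45% and 6.08% in siNfib, 4.30%, 5.99% and 7.74% in siNC and 2.96%, 2.74% and 3.66% in untreated VDR. The siNfia libraries all lay below the siNfib and siNC libraries, while siNfib lay within the range of siNC. The 3 siRNA groups differed by an exact permutation test over libraries (p = 0.0464), with means of 3.63% ± 0.19 in siNfia, 6.24% ± 0.19 in siNfib and 6.01% ± 1.72 in siNC (SD, n = 3 each). The siNC mean was 2.89 percentage points above that of untreated VDR (3.12% ± 0.48, n = 3), with an exact two-sided p of 0.1, the smallest that 3 against 3 allow.

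Other primary regions differed between libraries as well. Those that a library left unoccupied had a summit past rank 100000 and up to 150000 in 35.7%, 34.2% and 41.0% of cases in siNfia, 42.5%, 44.4% and 48.7% in siNfib, 30.3%, 41.6% and 50.8% in siNC and 17.3%, 15.3% and 18.5% in untreated VDR. Once these shares were subtracted, siNfia was 1.56 percentage points above siNC, with an exact permutation p of 0.479 over the 3 groups, and siNC minus untreated VDR was -20.97 percentage points (exact two-sided p of 0.1). In the whole lists the means were 6.51% of members in siNfia, 18.6% in siNfib, 13.8% in siNC and 4.95% in untreated VDR, with an exact permutation p of 0.0607 over the 3 siRNA groups. The call was also lost when any of 7 single libraries was left out. In each VDR library the share was lower for members, which all 12 libraries left unoccupied by rule, than for the other regions that this library left unoccupied. Those other regions were each occupied by another VDR library, also by rule. The lower share of members was thus close to given in advance and was not tested. The subtraction above used the same other regions, so they are not a neutral baseline.

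**Figure D4:**
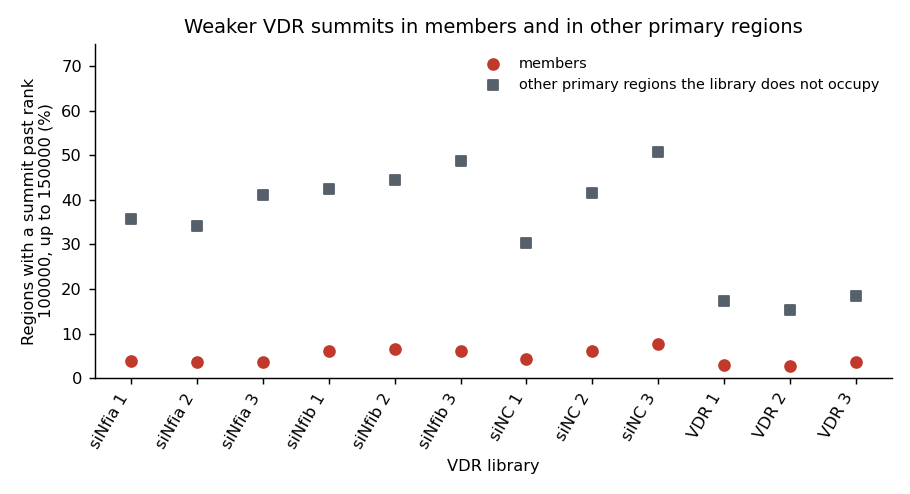
Percent of regions with a summit past rank 100000 and up to 150000 in each VDR library (x axis), for members (circles) and for other primary regions that the library did not occupy (squares). Members lie between 2.74% and 7.74% and other regions between 15.3% and 50.8%. By rule, each of the other regions was occupied by another VDR library and no member was.

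The rule used the stage lists only to ask that each member rank within the first 100000 of all 9, which bounds the ranks compared here, and it did not use how ranks differ between stages. GNP were of postnatal day 7 and hyperplasia of day 28, and the tumor age is not given. Stage and age therefore cannot be told apart in any stage comparison below. The median rank of the 3720 members was 40903.5, 41343 and 42418 in GNP, 40424.5, 40238.5 and 37663 in hyperplasia and 40332, 40440 and 39831.5 in tumor. GNP libraries had the poorest medians, with hyperplasia and tumor overlapping. The stages differed by an exact permutation test over libraries (p = 0.0321), with means of 41555 in GNP, 39442 in hyperplasia and 40201 in tumor. Without hyperplasia 3 the hyperplasia mean was 40331.5 and the exact permutation p 0.0679. The call was kept after subtracting the median of the other primary regions (exact permutation p = 0.0107). It was lost for the mean log2 rank (exact permutation p = 0.289). It was also lost when any of 6 single libraries was left out (exact permutation p up to 0.271). The shift thus rests on the choice of summary and libraries.

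Single members were compared with limma on log2 rank over all 40246 regions of the 9 primary libraries, with a positive change for a better rank and a call at a Benjamini-Hochberg adjusted p below 0.05. In tumor against GNP, 591 members (15.9%) had a better rank and 534 (14.4%) a poorer one, where 11.6% and 8.55% of all tested regions did. In hyperplasia against GNP, 581 (15.6%) were better and 496 (13.3%) poorer, beside 9.15% and 10.9% of all regions. In tumor against hyperplasia, 301 (8.09%) were better and 312 (8.39%) poorer, beside 9.15% and 5.35%. The share of members called was above that of all regions both ways in both comparisons with GNP, and in tumor against hyperplasia for poorer ranks only. In these bulk libraries, fewer cells with an open site and less access per cell cannot be told apart. At least 1 of the 3 comparisons called 1706 members (45.9%) and 32.9% of other primary regions.

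Shares were also compared at equal strength. In the middle ranks of the members, tumor against GNP called 17.3% better and 15.5% poorer, against 11.5% and 8.57% of other primary regions of the same ranks. For hyperplasia against GNP the values were 16.2% and 14.9% for members, against 9.38% and 11.1%. For tumor against hyperplasia, 8.76% of members were better, against 8.70% of the others, and 9.84% were poorer, against 5.11%. The comparisons with GNP share the 3 GNP libraries, so they are not independent of each other. Median changes were close to 0: 0.03 for members in tumor against GNP (-0.05 over all regions), 0.03 in hyperplasia against GNP (0.02) and -0.01 in tumor against hyperplasia (-0.03).

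Stmn2 and Unc5c carried large changes toward a poorer rank after GNP. The Stmn2 member described above changed by -3.80 in tumor against GNP (SE 0.54, limma adjusted p = 1.15e-05) and by -3.89 in hyperplasia against GNP (SE 0.54, adjusted p = 6.59e-06). The member at the Unc5c start ranked 2431, 941 and 1231 in GNP, 18006, 16789 and 15323 in hyperplasia and 12221, 14571 and 16789 in tumor. Its change was -3.35 in tumor against GNP (SE 0.35, limma adjusted p = 1.97e-07), and the GNP libraries did not overlap with the others. A second Unc5c member close by ranked 3284, 3357 and 3117 in GNP, 21929, 17625 and 26295 in hyperplasia and 14012, 16187 and 21820 in tumor.

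Tenm2, a teneurin of synaptic adhesion, had a member in its body (chr11:36804478-36804977) with ranks of 4086, 1583 and 2796 in GNP, 5321, 11610 and 9110 in hyperplasia and 48344, 46996 and 28369 in tumor. Its change in tumor against GNP was -3.93 (SE 0.37, limma adjusted p = 4.56e-08), and ranks were poorest in tumor. The largest change toward a poorer tumor rank was at chr1:61397793-61398292, more than 100 kb from any gene, with ranks of 2938, 5600 and 4793 in GNP, 54456, 29828 and 40759 in hyperplasia and 94209, 79205 and 75093 in tumor (log2 change -4.26). An intergenic member on chromosome 19 (chr19:20010098-20010597) had -3.42.

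In the other direction, the member 54010 bp from Sod3, the extracellular superoxide dismutase, ranked 51375, 84327 and 49856 in GNP, 3792, 1943 and 6768 in hyperplasia and 3643, 2762 and 9824 in tumor. Its change was 3.70 in tumor against GNP (SE 0.43, limma adjusted p = 8.58e-07) and 4.03 in hyperplasia against GNP. A member in Asic2, an acid-sensing channel, ranked 34644, 52275 and 31482 in GNP, 4638, 4773 and 2402 in hyperplasia and 4167, 3323 and 2920 in tumor, a change of 3.49 in tumor against GNP. Both sites stood apart in GNP and overlapped between hyperplasia and tumor. A member in Bin1, a membrane-bending protein, changed by 3.65 in the same comparison, with tumor ranks of 6624, 7057 and 7986 and GNP ranks of 78618, 99086 and 95029.

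Other members separated tumor from both earlier stages. The member 4341 bp from Cracr2a, a regulator of store-operated calcium entry, ranked 39046, 50183 and 70988 in GNP, 44204, 23976 and 20289 in hyperplasia and 3292, 5862 and 6036 in tumor. Its change was 3.41 in tumor against GNP and 2.51 in tumor against hyperplasia (SE 0.34, limma adjusted p = 2.40e-05). The member near Iqsec3, an ARF exchange factor of inhibitory synapses, ranked 27438, 28714 and 36480 in GNP, 18093, 22743 and 14416 in hyperplasia and 1720, 2003 and 8600 in tumor. A member in Cntnap2, a neurexin-family adhesion gene, ranked 4031, 2966 and 3259 in tumor, against 12223 to 35333 in hyperplasia. In all 3, no tumor library overlapped with another stage. The Ankrd55 member changed by 2.69 in tumor against hyperplasia, but its tumor ranks (17636, 6830 and 4812) overlapped with those of GNP (14833 to 18228). The Krtap16-1 member changed by 2.89 in that comparison and was widely spread over tumor libraries (2225, 27672 and 1958). Its tumor ranks overlapped with those of hyperplasia (14573 to 87667).

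A further set stood out in hyperplasia. A member in Jup, which encodes plakoglobin of cell junctions, ranked 68695, 81887 and 87318 in GNP, 2822, 4322 and 6131 in hyperplasia and 37825, 47037 and 42216 in tumor. Its change was 4.23 in hyperplasia against GNP and -3.32 in tumor against hyperplasia (SE 0.30 in both, limma adjusted p = 4.06e-10 and 3.68e-07). A member in Chat, the acetylcholine-synthesising enzyme, ranked 45024, 49166 and 50462 in GNP, 4435, 2083 and 4236 in hyperplasia and 21621, 60624 and 61951 in tumor. Both sites ranked best in the 3 hyperplasia libraries, with no overlap with GNP or tumor. Members in Adamts17, a secreted metalloprotease (tumor against hyperplasia -3.62), Shisa9, an AMPA receptor partner (-3.09), and Popdc3 (-3.31) also ranked better in hyperplasia than in tumor, and the member near Fermt1, kindlin-1, changed by 3.92 in hyperplasia against GNP. An intergenic member at chr4:23636213-23636712 had 3.99 in that comparison, and ranks of 6183 to 20803 in tumor.

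Toward poorer ranks in hyperplasia, the largest change was at the intergenic member chr4:9019397-9019896. It ranked 1427, 1260 and 1008 in GNP, 47824, 43488 and 20892 in hyperplasia and 9033, 17163 and 11409 in tumor, a change of -4.85 in hyperplasia against GNP (SE 0.36, limma adjusted p = 6.90e-10). A member in Clstn2 ranked 10528, 6492 and 6065 in GNP, 76901, 77865 and 81760 in hyperplasia and 42400, 35742 and 34660 in tumor, a change of -3.40. At both, the 3 stages formed separate ranges.

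**Figure D5:**
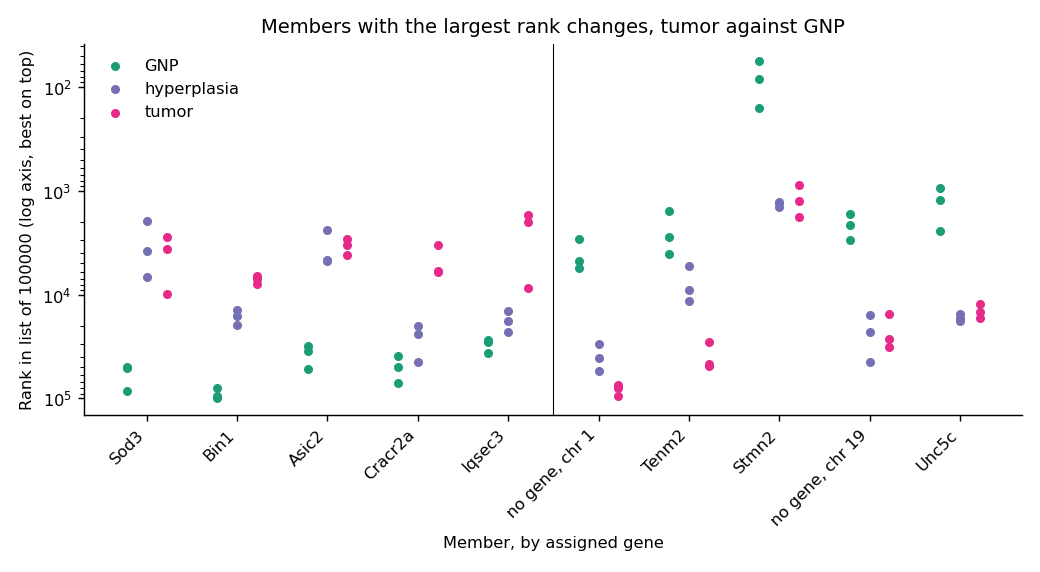
Rank in the 100000-summit list (y axis, log scale, best on top) of the 10 members with the largest changes in tumor against GNP, for each library of GNP, hyperplasia and tumor. The 5 members left of the line have better ranks in tumor than in GNP and the 5 on the right have poorer ones, and the tumor and GNP points do not overlap in any of the 10.

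Among members of granule progenitor genes, poorer ranks after GNP outnumbered better ones. Of 21, 8 had a poorer and 1 a better rank in tumor against GNP, with a median change of -0.65, and 8 had a poorer and 0 a better rank in hyperplasia against GNP, with a median of -0.46; the medians over all regions were -0.05 and 0.02. Of all regions, 8.55% were poorer and 11.6% better in tumor against GNP, and 10.9% poorer and 9.15% better in hyperplasia against GNP. Pax6 had 3 called of 6 in both comparisons. Its member at chr2:105660014-105660513 ranked 4283, 6710 and 6457 in GNP, 57402, 31805 and 25163 in hyperplasia and 32050, 50664 and 88079 in tumor, a change of -3.20 in tumor against GNP (SE 0.35, limma adjusted p = 4.09e-07). The GNP libraries held the strong signal there, and the later stages overlapped with each other. The other called Pax6 members changed by -1.84 and -1.21.

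All 3 Barhl2 members had poorer ranks in tumor than in GNP, by -0.81, -0.96 and -2.13, and in hyperplasia than in GNP, by -1.47, -0.97 and -2.09. The last of them (chr5:106454251-106454750) ranked 9197, 9198 and 12028 in GNP, 52624, 45370 and 32618 in hyperplasia and 52068, 36923 and 44676 in tumor. The Zic4 member changed by -1.19 and 1 of 2 Insm1 members, a zinc finger factor, by -1.09 in tumor against GNP. None of the 3 Neurod1 members was called in any comparison, with changes of -0.65, -0.59 and -0.26 in tumor against GNP.

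Neural stem and glial progenitor genes had 3 of 10 members with a better rank and 0 with a poorer one in both comparisons with GNP, with a median of 0.27 in tumor and 0.24 in hyperplasia; 11.6% and 9.15% of all regions were better in these comparisons, and with 10 members the counts are small. An Olig2 member at chr16:91225126-91225625 ranked 84009, 57716 and 53125 in GNP, 12589, 7865 and 11698 in hyperplasia and 9191, 4673 and 6645 in tumor, a change of 3.27 in tumor against GNP (SE 0.32, limma adjusted p = 7.88e-08). A second Olig2 member had 2.12 and the Pdgfra member, at a receptor of glial progenitors, 1.18. Beside this list, 1 of 3 astrocyte-marker members had a better and 1 a poorer rank in tumor against GNP, and the 1 oligodendrocyte-marker member was not called. The part of other cells in these changes was not tested.

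The single Nfia member (chr4:97794813-97795312) ranked 47669, 68050 and 40516 in GNP, 12676, 15309 and 9903 in hyperplasia and 21923, 30821 and 22378 in tumor. It changed by 1.04 in tumor against GNP (SE 0.29, limma adjusted p = 0.0123) and by 2.03 in hyperplasia against GNP, with 3 separate ranges. Of the other 6 NFI members, 1 at Nfix had a better rank in hyperplasia than in GNP (1.03) and none was called in tumor against GNP. Of the 6 Hedgehog members, 1, at Kif7, was called in tumor against GNP, with a poorer rank. Those of Ptch1 and Gli3 changed by -0.34 and -0.03. In tumor against GNP, 8.55% of all regions were poorer and 11.6% better, and in hyperplasia against GNP 9.15% were better. Counts from 6 members cannot be told apart from these shares. Members at Esrrg moved both ways: chr1:188046682-188047181 had -2.09 in tumor against GNP and -3.28 in hyperplasia against GNP, while chr1:187709257-187709756 had 1.06 and 2.60. At Ntrk2, 11 of the 12 members were called in no comparison, and 1 (chr13:58826800-58827299) had a poorer rank in tumor (-1.70) and in hyperplasia (-1.32) than in GNP. At least 1 comparison called 45.9% of all members and 32.9% of other primary regions.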

How the data were processed

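Each library came as a list of peak summits deposited by the authors, whose score is read here as −log10 of a p or q value; no source says which. Per the submitters' processing notes, Bowtie2, Picard and MACS2 were used with mm10, without versions or parameters. Scores served only to rank summits within a list, since they depend on depth, which is unknown, so no counting interval is given.

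From each list the 100000 highest summits on the 19 autosomes, X and Y were kept, pooled by rank (ties by position) and accepted as 500 bp regions when at least 500 bp from accepted summits. A region took the shortest gene whose body held its centre, or else the nearest gene within 100 kb, over 21887 protein-coding genes of GRCm38.p6. Coordinates are 1-based. Ranks of a region's strongest summit in the 9 primary libraries were fitted as log2 values in R 4.3.3 with limma 3.58.1 (trended empirical Bayes, no covariates), with Benjamini-Hochberg adjustment over 40246 regions. Single values per library were tested by exact permutation over libraries. The ± sign is the SD over libraries.

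Named were the 15 genes with the most members, the 8 members best by rank, the 5 members with the largest change per comparison and direction, the 5 longest runs, all genes of the NFI, Hedgehog and granule progenitor lists, and up to 4 genes with at least 3 members of other lists. Beside these, genes with fewer members of short lists (Vim, Pdgfra, Cdkn2b, Ptprc, Irf8, Spi1), the genes shown by sequence, the border genes, Spock1, and single members of named genes were chosen after their values were seen. Members and lists were chosen with earlier results of these data known. Motifs were searched in RefSeq promoter windows only, and CTCF was not searched. Results for a few genes are not reported here.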

Additional observations from a re-analysis of the deposited data

How the results depend on the processing

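The number of members depended on the score limit: 1748 with the 50000 highest summits per list and 5889 with all summits of score 10 or more, which left 11433 to 164171 per list. It was 5464 with 150000 summits, 3289 with 1000 bp regions, 3760 to 4020 without single replicates, and, in alternatives added after seeing the data, 4343 without untreated VDR and 4891 without hyperplasia. Of the 3720 members, 930 had their centre in a member region at 50000 summits, 2544 at 150000, 3491 at score 10 and 3141 with 1000 bp regions, so the identity of members changed too. Genes with at least 5 members numbered 38, or 28 with assignment within 20 kb. The tumor minus GNP difference in median rank (-1354) was -0.0324 as mean log2 rank (exact permutation p = 0.289) and -1679 to -922.1 without single replicates (exact permutation p = 0.0143 to 0.271). It was -902.5 after subtracting the median of the other primary regions (exact permutation p = 0.0107). The siNfia minus siNC difference in weaker summits (-2.38 percentage points) was -7.31 in whole lists (exact permutation p = 0.0607), reversed to 1.56 after subtracting unoccupied other regions (exact permutation p = 0.479), and was -3.24 to -1.52 without single replicates (exact permutation p = 0.00357 to 0.121). The siNC minus untreated VDR difference (2.89) was -20.97 after that subtraction and 2.03 to 3.75 without single replicates. With a replicate block, 1135 members were called in tumor against GNP, 1075 in hyperplasia against GNP and 608 in tumor against hyperplasia, against 1125, 1077 and 613 without it; same-numbered primary libraries did not deviate together (r of -0.08 to 0.04, 0 of 9 pairs over 0.1), so the numbers were not taken to pair samples. Other settings moved the number of called members more. Without the trend in the empirical Bayes step it was 974, 934 and 497 in the same 3 comparisons. Without single replicates it was 801 to 1308 in tumor against GNP and 759 to 1102 in hyperplasia against GNP. In tumor against hyperplasia it was then 417 to 720. The 30 named stage changes kept their direction and call in all 420 values of the alternatives run. They were chosen as the largest called changes in these same libraries, so this was close to given in advance. Causes of the changes above were not tested. Ranks give no depth, so absence from a list is absence at that list length only.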
